A study of Mus musculus with 84 samples.

Results

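Hindbrain astrocytes that carry GLAST on their surface (GLASTpos) were compared between the peak and the chronic stage of experimental autoimmune encephalomyelitis (EAE), a mouse model of multiple sclerosis in which immunization against a myelin protein drives inflammation of the central nervous system. The members were all libraries titled as hindbrain GLASTpos astrocytes at score 4 (E4, 6 libraries) or at the chronic stage (Ech, 4 libraries), which are 10 of the 84 libraries of the series. All mice were C57BL/6J by their labels and, per the study's methods, female and 10 weeks old at immunization. E4 and Ech mice had received a MOG peptide in complete Freund's adjuvant and pertussis toxin. E4 mice had complete paralysis of the hind legs, and Ech mice were taken later, with chronic signs. Cells of cerebellum and brain stem were sorted as CD11B-negative, CD45-negative, ACSA-2-positive and GLASTpos, and a library could hold astrocytes pooled from as many as 2 mice. Unimmunized mice (C, 5 libraries) and mice at score 1 with a limp tail (E1, 6 libraries) of the same population gave reference levels.

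GLAST is the glutamate transporter encoded by Slc1a3. In the cerebellum it is abundant in Bergmann glia, radial astrocytes whose processes ensheath the synapses of Purkinje neurons. In EAE, lymphocytes that enter the tissue release interferon-gamma. Signals from its receptor act on a palindrome called the gamma-activated site (GAS) and induce the transcription factor IRF1, and they switch on immunity-related GTPases, guanylate-binding proteins and the machinery that loads peptides on MHC class I. Type I interferon acts through a complex that holds STAT2 and IRF9 on a motif called the interferon-stimulated response element (ISRE). Astrocytes also respond to injury with a STAT3-dependent programme marked by the filament protein GFAP.

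The 10 libraries held between 2238841 and 4123798 counts each. Expression is given in counts per 1e6 counts (CPM) after TMM scaling. Detection required more than 3 counts, a floor that lay between 0.688 and 1.15 CPM across the libraries. The floor allows for counting error and nothing else, since no molecular identifiers were used and PCR copies of a molecule were counted as reads. The labelled cell type was met by its markers. Summed over 9 astrocyte genes, expression was between 18181 and 30698 CPM in E4 and between 18085 and 24603 CPM in Ech. Slc1a3 was present at 4273 (lowest), 8402 (median) and 11582 (highest) CPM in E4 and at 4595, 4919, 7716 and 7492 CPM in Ech 1 to 4, and Gdf10, a Bergmann glia gene, at 1055, 2484 and 3255 CPM and at 995, 1713, 1708 and 2402 CPM. Atp1b2, which encodes the ACSA-2 antigen, was at 5219, 5964 and 7211 CPM in E4 and at 4073, 4413, 4706 and 6743 CPM in Ech. E4 replicate 1 stood apart from its group, with a median correlation to the other E4 libraries of 0.788 on log-scale expression, where the other 5 had between 0.836 and 0.89. It also held the most T cell transcripts (1235 CPM summed over 18 genes). In bulk libraries, fewer cells of a type and less RNA per cell cannot be told apart.

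The sequences just upstream of 5 of the genes that fell are shown first, because these genes belong to the interferon lists and the stretches hold motifs named above. Each is the 250 bases before the gene's RefSeq start, 5′ to 3′ on the gene's strand, in build GRCm38.p6. Capitals mark matches to an ISRE-like motif (GAAA, any 2 bases, GAAA) or to a GAS motif (TTCNNNGAA), searched on both strands, and matches may overlap. They lie upstream of the immunity-related GTPase genes Igtp (chr11:58199306-58199555, plus strand) and Irgm2 (chr11:58214727-58214976, plus strand), the guanylate-binding protein gene Gbp2 (chr3:142620413-142620662, plus strand), the ubiquitin-like modifier gene Isg15 (chr4:156200819-156201068, minus strand) and the transcription factor gene Irf1 (chr11:53769764-53770013, plus strand).
Igtp: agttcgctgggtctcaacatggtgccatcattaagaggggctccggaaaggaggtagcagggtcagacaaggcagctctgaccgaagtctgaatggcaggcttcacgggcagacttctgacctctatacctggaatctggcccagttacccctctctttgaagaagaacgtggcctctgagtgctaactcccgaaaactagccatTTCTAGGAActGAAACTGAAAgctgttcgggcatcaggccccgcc
Irgm2: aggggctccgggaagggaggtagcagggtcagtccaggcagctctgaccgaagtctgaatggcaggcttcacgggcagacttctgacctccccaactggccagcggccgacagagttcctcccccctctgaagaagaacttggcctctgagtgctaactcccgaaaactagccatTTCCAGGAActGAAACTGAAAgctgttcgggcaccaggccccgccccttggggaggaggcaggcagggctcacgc
Gbp2: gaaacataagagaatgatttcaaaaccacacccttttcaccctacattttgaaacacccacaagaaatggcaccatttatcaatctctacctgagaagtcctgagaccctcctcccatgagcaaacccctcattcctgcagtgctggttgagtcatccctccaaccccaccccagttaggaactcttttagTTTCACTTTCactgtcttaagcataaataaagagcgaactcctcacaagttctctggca
Isg15: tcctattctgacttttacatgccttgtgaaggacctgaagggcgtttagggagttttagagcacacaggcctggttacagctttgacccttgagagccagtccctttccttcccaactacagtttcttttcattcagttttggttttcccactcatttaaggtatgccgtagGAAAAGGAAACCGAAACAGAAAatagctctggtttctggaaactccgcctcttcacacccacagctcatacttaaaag
Irf1: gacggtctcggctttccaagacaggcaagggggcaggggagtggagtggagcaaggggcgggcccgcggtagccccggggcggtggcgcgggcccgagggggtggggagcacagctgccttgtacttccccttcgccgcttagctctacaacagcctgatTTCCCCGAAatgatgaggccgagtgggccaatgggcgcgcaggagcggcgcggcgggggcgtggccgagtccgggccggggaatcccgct

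Igtp and Irgm2, which are neighbours, shared an arrangement of a GAS match followed by an ISRE-like match, beginning 45 and 34 bases before the start of Igtp and 75 and 64 bases before that of Irgm2. Gbp2 held an ISRE-like match on the opposite strand, beginning 59 bases before its start, and Isg15 held 3 overlapping ones, beginning 78, 72 and 66 bases before. Irf1 held a GAS match beginning 90 bases before its start and no ISRE-like match. Among the genes tested, 13958 of 23324 had such an upstream sequence in RefSeq, and 3.32% of these held an ISRE-like match and 7.39% a GAS match. Of the 149 genes with a sequence among the 213 that fell from E4 to Ech, 16.1% held an ISRE-like match and 16.1% a GAS match. Of the 74 interferon and MHC class I list members with a sequence, a set that overlaps the genes that fell, 35.1% and 23% did, so many list members held no match. Of the 432 with a sequence among the 629 that rose, 2.78% and 6.94% did. A match is a stretch of letters and does not show that a factor was bound.

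Differentially expressed genes (DEGs) were those that passed an adjusted p of 0.05 with a log2 fold change beyond 1 in either direction. From E4 to Ech, 213 genes fell (0.913% of the 23324 tested) and 629 rose (2.7%). The median log2 fold change over all genes was 0.00, as in every other comparison made, so it does not set this comparison apart. Libraries of the groups did not overlap for 368 genes that were lower in Ech (1.58%) and 519 that were higher (2.23%). The number of DEGs was 842 with all libraries and 471 without Ech replicate 2, and 442 genes were DEGs in both cases. It was 415 when the spread was estimated from the 10 libraries alone. Against the unimmunized mice, E4 had 388 genes higher (1.66%) and 86 lower (0.369%), and Ech had 283 higher (1.21%) and 23 lower (0.0986%).

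Interferon-inducible genes and genes of MHC class I presentation made up 50 of the 213 genes that fell. Of 95 members of these lists that were tested, these 50 fell from E4 to Ech and none rose, against 0.913% of all genes, and the median log2 fold change was -2.14. For 45 of the 95, all 4 Ech libraries lay below all 6 E4 libraries (1.58% of all genes). Summed over the 95 genes, expression was 9443, 9872, 18350, 20266, 10517 and 13100 CPM in E4 1 to 6 and 5078, 3464, 4475 and 4193 CPM in Ech 1 to 4. The 5 unimmunized libraries lay between 3353 and 4307 CPM. The number that fell was 30 without Ech replicate 2, 49 without E4 replicate 1 and 50 without E4 replicates 1 and 2.

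T cell transcripts were measured in the same libraries, and their sums overlapped between the groups. The sum was 1235, 423, 129, 95.9, 56.7 and 68.5 CPM in E4 1 to 6 and 217, 48, 66.5 and 12.8 CPM in Ech 1 to 4. None of the 18 T cell genes was called from E4 to Ech, but their median log2 fold change was -2.52. Of the 18, 11 were higher in E4 than in C (1.66% of all genes) and 3 in Ech than in C (1.21%). In all Ech libraries, 3 of the 18 were at or under the floor. Ptprc, the CD45 gene, was at 4.93, 17.3 and 147 CPM (lowest, median, highest) in E4 and at 21.4, 0.828, 5.5 and 12.3 CPM in Ech. None of the 18 blood myeloid, 10 pan-leukocyte, 7 B cell, 9 endothelial, 11 pericyte and fibroblast or 9 ependymal genes tested was called either. Median log2 fold changes were -1.91 for blood myeloid and -1.92 for pan-leukocyte genes, and between -0.02 and 0.00 for the other lists of that sentence. In all E4 libraries, 4 of 7 B cell, 4 of 9 endothelial and 6 of 11 pericyte and fibroblast genes were at or under the floor. The numbers were the same in all Ech libraries, where 4 of 9 ependymal genes were too. A lack of calls or a median near 0.00 does not show that these lists were unchanged. Of 14 microglia genes 1 was called, Sall1, which rose (2.7% of all genes did) and which astrocytes also express. The sum of the 14 was between 94.1 and 283 CPM in E4 and between 105 and 170 CPM in Ech. The B cell genes Cd79b and Ms4a1 were at 0 in all 10 libraries. The order of the E4 libraries was not the same for both sums. E4 replicate 1 had the highest T cell sum and the lowest interferon sum, and E4 replicates 3 and 4 had the highest interferon sums. The part of infiltrating cells in the fall was not tested. E4 replicates 1 and 2 also had the lowest interferon sums of E4 (9443 and 9872 CPM), so the count without them cannot serve as such a test.

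The immunity-related GTPases and guanylate-binding proteins, which attack the vacuoles of intracellular pathogens, had the lowest median of the interferon lists. Of 19 such genes tested, 13 fell and none rose, against 0.913% and 2.7% of all genes, with a median log2 fold change of -3.93. Igtp was at 254 (lowest), 884 (median) and 2524 (highest) CPM in E4 and at 38.7, 6.34, 61.6 and 21.6 CPM in Ech 1 to 4. Every Ech library was below every E4 library, and the log2 fold change was -5.30 ± 0.72 (standard error, adjusted p = 4.7e-07). Irgm2 was at 139, 719 and 1755 CPM in E4 and at 30.6, 41.9, 96.5 and 66.5 CPM in Ech, a log2 fold change of -3.78 ± 0.74 (adjusted p = 5.1e-04). Annotated exons of Igtp and Irgm2 overlap on the same strand, so how counting divided reads between them is uncertain.

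Gbp2 was at 30.1, 210 and 703 CPM in E4. The 4 Ech libraries were nearly identical, at 8.04, 8, 8.02 and 8.1 CPM, and the log2 fold change was -5.09 ± 0.87 (adjusted p = 5.0e-05). Gbp6 was at 1.74, 58.4 and 264 CPM in E4 and at 0.766, 0, 0.229 and 0 CPM in Ech. All 4 Ech libraries were at or under the floor for Gbp6, so its mean was at least 87.3-fold lower than in E4. The lowest E4 library, at 1.74 CPM, was itself near the floor, and the call was lost without Ech replicate 2. Gbp6 has close paralogs that can share reads. Irgm1, which regulates the other immunity-related GTPases, had a log2 fold change of -4.89 ± 0.80, Ifi47 of -4.46 ± 0.75, Iigp1 of -4.16 ± 0.74, Gbp7 of -3.28 ± 0.53 and Gbp4 of -4.77 ± 1.27. For each of these 5 genes the E4 and Ech libraries did not overlap, and the call on Gbp4 was lost without Ech replicate 2 or 4.

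**Figure D1:**
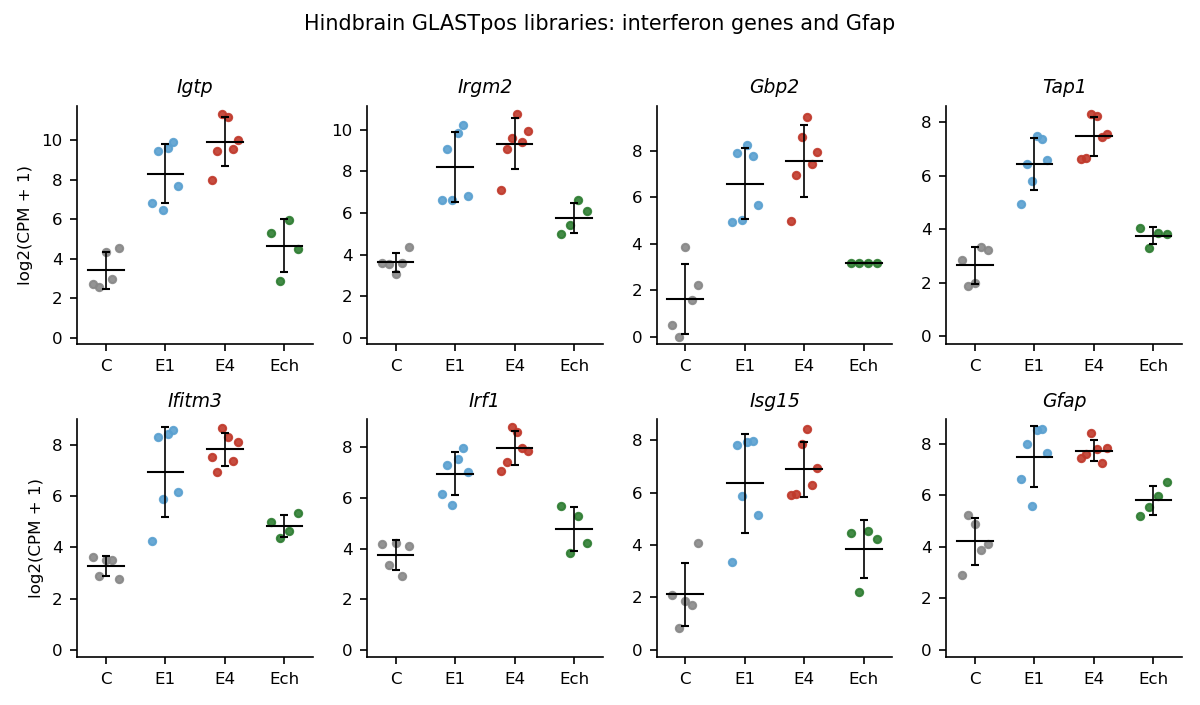
Expression of 7 interferon-inducible genes and Gfap in the hindbrain GLASTpos libraries, as log2(CPM + 1), with points for libraries (C, 5; E1, 6; E4, 6; Ech, 4), horizontal lines for means and error bars for 1 SD. The Ech libraries lie below all E4 libraries in each panel, and the 4 Ech points for Gbp2 coincide.

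MHC class I presentation fell in part. Of 22 genes tested, 8 fell and none rose, against 0.913% and 2.7% of all genes, with a median log2 fold change of -1.59. Tap1, a subunit of the transporter that carries peptides into the endoplasmic reticulum, was at 99.3, 182 and 316 CPM in E4 and at 15.7, 8.83, 13.5 and 13 CPM in Ech. No library overlapped, and the log2 fold change was -3.94 ± 0.54 (adjusted p = 6.1e-07). Psmb8, an immunoproteasome subunit, had a log2 fold change of -3.57 ± 0.67 (adjusted p = 2.6e-04), and Nlrc5, the transactivator of class I genes, of -3.79 ± 0.69 (adjusted p = 1.6e-04). The chains of the class I molecule itself had smaller fold changes. B2m, the light chain, was at 518, 568 and 806 CPM in E4 and at 352, 148, 163 and 217 CPM in Ech, a log2 fold change of -1.47 ± 0.37 (adjusted p = 0.0088). H2-K1, a heavy chain, was at 958, 1452 and 2022 CPM in E4 and at 967, 434, 470 and 545 CPM in Ech, where replicate 1 lay within the E4 range. Its log2 fold change was -1.26 ± 0.34 (adjusted p = 0.020), and H2 genes are alike enough in sequence that counts may be divided among them. Both calls were lost without Ech replicate 2, and that on H2-K1 also without E4 replicate 1 or Ech replicate 3 or 4.

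Of 37 antiviral interferon-stimulated genes, 21 fell and none rose (median log2 fold change -2.04), against 0.913% and 2.7% of all genes. Isg15 was at 59.7, 99.4 and 345 CPM in E4 and at 21.1, 3.59, 22 and 17.7 CPM in Ech, a log2 fold change of -3.21 ± 0.69 (adjusted p = 0.0017). Ifitm3, which blocks viral entry, was at 123, 231 and 412 CPM in E4 and at 31, 19.6, 24.1 and 39.3 CPM in Ech, a log2 fold change of -3.12 ± 0.67 (adjusted p = 0.0016). Both were lower in every Ech library than in any E4 library. Bst2, which tethers virus particles to the cell, had a log2 fold change of -2.71 ± 0.55 and the translation inhibitor Ifit3 of -2.06 ± 0.56. The call on Ifit3 was lost without E4 replicate 3 or 4 or Ech replicate 1 or 2.

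Of 17 signalling genes of the pathway, 8 fell and none rose (median log2 fold change -0.93), against 0.913% and 2.7% of all genes. Irf1 was at 134, 243 and 452 CPM in E4 and at 50.9, 13.2, 37.6 and 17.9 CPM in Ech, a log2 fold change of -3.20 ± 0.52 (adjusted p = 2.2e-05). Every Ech library was below every E4 library. Stat2 and Irf9, which act in the type I interferon complex, had log2 fold changes of -2.40 ± 0.41 and -1.73 ± 0.33. Cd274, which encodes the checkpoint ligand PD-L1, had one of -3.00 ± 0.77, with E4 spread from 0.466 to 85.4 CPM around Ech at 6.51, 3.31, 5.04 and 9.82 CPM, and its call was lost without Ech replicate 2.

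Fewer of these genes were called above the level of unimmunized mice in Ech than in E4. The comparisons of E4 with C and of Ech with C share the C libraries, and their values are set side by side. Of the 95 genes, 66 were higher in E4 than in C (median log2 fold change 3.48), against 1.66% of all genes. In Ech, 10 were higher than in C (median 1.01), against 1.21% of all genes. The groups differ in size (6 E4 and 4 Ech libraries), so the numbers called are not directly comparable. The 10 were H2-D1, Psmb9, Nlrc5, Iigp1, Gbp3, Ifit1, Oasl2, Rtp4, Lgals3bp and Cmpk2. Lgals3bp, a secreted glycoprotein, had a mean of 19.3 CPM in C, 188 CPM in E4 and 81.6 CPM in Ech, and Oasl2, an oligoadenylate synthetase relative, of 1.36, 88.8 and 14.9 CPM. For Igtp the mean in C was 11.8 ± 8.29 CPM (SD, n = 5), and Ech against C had a log2 fold change of 1.42 (adjusted p = 0.21).

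Other immune genes did not follow this pattern as a group. Of 10 genes of MHC class II presentation none was called, with a median log2 fold change of -1.08. H2-Aa was at 0.308, 19.4 and 28.3 CPM in E4 and at 11.9, 4.97, 5.73 and 15 CPM in Ech, and H2-Ab1 at 0, 6.58 and 29.2 CPM and at 12.3, 6.34, 15.4 and 10.8 CPM. Both chains were at or near 0 in unimmunized mice and higher in Ech than in C (adjusted p = 0.0053 and 9.8e-04). Ptprc was also higher in Ech than in C (adjusted p = 0.0074), and the part of leukocyte RNA in these values was not tested. Of 22 chemokine and cytokine genes none fell and 1 rose, Tgfb2, against 0.913% and 2.7% of all genes. Cxcl10, a chemokine for T cells, was at 8.46, 18.7 and 73.5 CPM in E4 and at 11.9, 0, 11 and 5.65 CPM in Ech, with overlap.

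Of 16 complement genes, 2 fell and none rose, against 0.913% and 2.7% of all genes. C4b, a complement component made by reactive astrocytes, was at 148, 262 and 405 CPM in E4 and at 123, 47.7, 67.4 and 50.1 CPM in Ech, a log2 fold change of -1.90 ± 0.41 (adjusted p = 0.0017). It did not return to the level of unimmunized mice, where the mean was 5.58 ± 5.51 CPM (SD, n = 5), and Ech was above C by a log2 fold change of 3.63 (adjusted p = 2.8e-07). Serping1, the inhibitor of the first complement component, was at 17.3, 33.6 and 67.9 CPM in E4 and at 3.83, 0.828, 7.1 and 3.19 CPM in Ech, a log2 fold change of -3.31 ± 0.77 (adjusted p = 0.0047).

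Markers of reactive astrocytes fell in part. Of 13 pan-reactive genes 2 fell (Gfap and Cp), and of 11 genes induced by lipopolysaccharide 6 fell, against 0.913% of all genes. Of 11 genes induced by ischaemia 1 fell (Emp1, near the floor, at 0, 2.68 and 4.9 CPM in E4 and at 0 in Ech). None rose in these lists, against 2.7% of all genes. The 6 of the lipopolysaccharide list were Serping1, Iigp1, Gbp2, Fkbp5, Psmb8 and Amigo2, of which Iigp1, Gbp2 and Psmb8 also belong to the interferon lists. Gfap was at 152, 207 and 344 CPM in E4 and at 35.6, 45.8, 62.1 and 89.8 CPM in Ech, a log2 fold change of -1.90 ± 0.38 (adjusted p = 6.7e-04). All Ech libraries were below E4, and Ech was still above C, with a mean of 20.3 ± 12 CPM (SD, n = 5) in C and a log2 fold change of 1.53 (adjusted p = 0.019). Serpina3n, a serine protease inhibitor of reactive astrocytes, was not called. It was at 29.6, 71.9 and 136 CPM in E4 and at 118, 57.1, 48.1 and 55.2 CPM in Ech, against a mean of 6.92 CPM in C, and Ech was above C by a log2 fold change of 3.36 (adjusted p = 1.7e-04). Vim, another filament gene, was at 299, 456 and 529 CPM in E4 and at 292, 633, 577 and 652 CPM in Ech, with no call.

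Stat3, the transcription factor of the reactive programme, was at 284, 380 and 623 CPM in E4 and at 154, 112, 124 and 130 CPM in Ech. No library overlapped, the log2 fold change was -1.65 ± 0.25 (adjusted p = 4.7e-06), and Ech had a log2 fold change of 0.41 against C (adjusted p = 0.38). Among 18 STAT3, NF-kappaB and C/EBP regulators, 4 fell and none rose, against 0.913% and 2.7% of all genes. Amigo2, an adhesion gene of the lipopolysaccharide list, was at 129, 207 and 361 CPM in E4 and at 92.3, 38.9, 53.2 and 84.2 CPM in Ech, a log2 fold change of -1.65 ± 0.43 (adjusted p = 0.015) that was not called without Ech replicate 2 or 3 or E4 replicate 6.

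**Figure D2:**
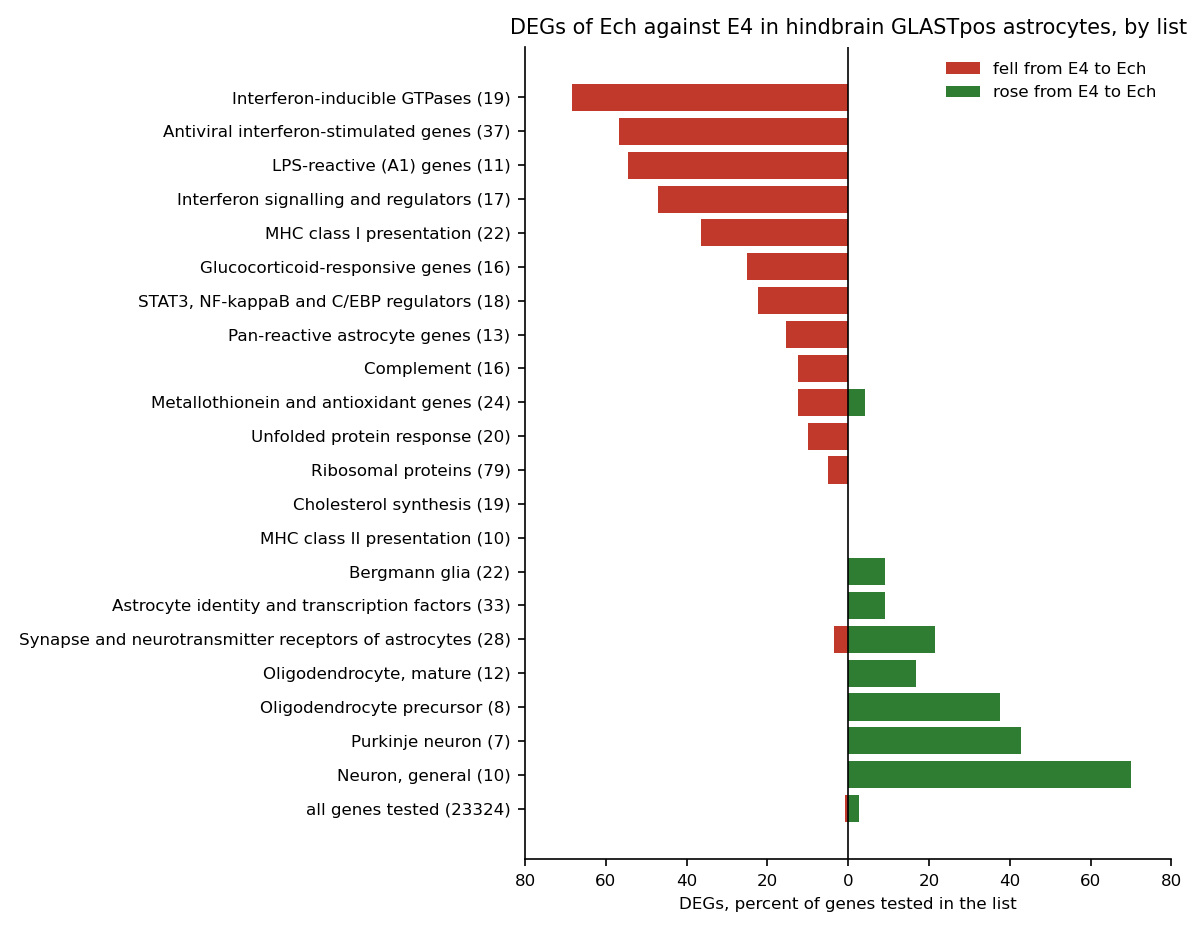
Percent of the tested genes of each list (number tested in brackets) that fell (red, to the left) or rose (green, to the right) from E4 to Ech in hindbrain GLASTpos astrocytes. The interferon-inducible GTPases have 13 of 19 genes that fell and the general neuron markers 7 of 10 that rose, and the bottom bar gives all genes tested (0.913% fell, 2.7% rose).

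Abundant metallothionein transcripts fell, while most other stress-related genes were not called. Metallothioneins bind zinc and copper and are induced by glucocorticoids and cytokines. Mt2 was at 11222, 13020 and 23536 CPM in E4 and at 3416, 3405, 4833 and 8871 CPM in Ech, a log2 fold change of -1.49 ± 0.41 (adjusted p = 0.022), and Mt1 had one of -1.48 ± 0.41 (adjusted p = 0.024). Prdx6, a peroxiredoxin, had a log2 fold change of -1.02 ± 0.22 (adjusted p = 0.0020). Of 24 metallothionein and antioxidant genes, these 3 fell and 1 rose, Slc7a11, against 0.913% and 2.7% of all genes. The median log2 fold change was -0.14. Of 31 immediate early and dissociation stress genes none fell and 1 rose, Egr1, with a median of -0.40. The groups did not overlap for these 3, but the calls on Mt1 and Mt2 were each lost without E4 replicate 6 or without Ech replicate 1, 2 or 3.

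Of 16 glucocorticoid-responsive genes, 4 fell and none rose (median log2 fold change -0.55), against 0.913% and 2.7% of all genes. Tsc22d3, which encodes the glucocorticoid-induced leucine zipper, was at 380, 590 and 1171 CPM in E4 and at 286, 181, 196 and 473 CPM in Ech, a log2 fold change of -1.20 ± 0.31 (adjusted p = 0.012). Zbtb16, a transcriptional repressor, had one of -1.90 ± 0.46 (adjusted p = 0.0069), Fkbp5, a chaperone of the glucocorticoid receptor, of -2.76 ± 0.81 and the clock gene Per1 of -1.10 ± 0.31. The libraries of E4 and Ech overlapped for each of these 4. The calls on Tsc22d3, Fkbp5 and Per1 were each lost without Ech replicate 2 or 3. That on Tsc22d3 was also lost without E4 replicate 6, that on Fkbp5 without E4 replicate 2 or 6 or Ech replicate 1, and that on Per1 without E4 replicate 1 or Ech replicate 4.

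Atf5 and Atf4, transcription factors of the amino acid and stress response, fell. Atf5 was at 257, 445 and 622 CPM in E4 and at 50.2, 103, 124 and 93.8 CPM in Ech, a log2 fold change of -2.23 ± 0.28 (adjusted p = 6.7e-08). Atf4, its upstream regulator, was at 330, 474 and 677 CPM in E4 and at 145, 266, 232 and 248 CPM in Ech, a log2 fold change of -1.13 ± 0.23 (adjusted p = 7.3e-04). Nupr1, a stress-induced chromatin protein, had one of -3.97 ± 0.91 (adjusted p = 0.0039). No library overlapped for the 3 genes. Ddit3, another factor of this response, was not called, at 6.99, 28.1 and 37.5 CPM in E4 and at 11.9, 9.38, 8.94 and 16.7 CPM in Ech. In the list of the unfolded protein response, to which Atf4 belongs, 2 of 20 genes fell and none rose, and the median was -0.54. Over all genes, 0.913% fell and 2.7% rose.

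Several genes typical of astrocytes fell as well. Sparc, a secreted matrix protein that opposes synapse formation, was at 6277, 7494 and 9308 CPM in E4 and at 3566, 1686, 3102 and 3604 CPM in Ech, a log2 fold change of -1.34 ± 0.26 (adjusted p = 4.6e-04). All Ech libraries were below E4. Smaller changes passed the adjusted p but not the fold limit. Over all genes, 1.23% were lower in Ech by the adjusted p alone. Such changes were seen in Aldoc, an aldolase of astrocytes (log2 fold change -0.76 ± 0.23, adjusted p = 0.039), Sept4, a septin of Bergmann glia (-0.97 ± 0.26, adjusted p = 0.017), and Spry2, an inhibitor of FGF signalling (-0.95 ± 0.23, adjusted p = 0.0086). Those on Aldoc and Sept4 were lost without Ech replicate 1 or 2, and that on Aldoc also without E4 replicate 3 or 6 or Ech replicate 3.

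Genes that rose from E4 to Ech included a set of astrocyte genes that were lower in E4 than in unimmunized mice. Slc6a11, the GABA transporter of astrocytes, was at 318, 343 and 414 CPM in E4 and at 4766, 938, 1837 and 748 CPM in Ech. All Ech libraries were above E4 but differed among themselves, and the log2 fold change was 2.55 ± 0.38 (adjusted p = 3.3e-06). Its mean in C was 1083 ± 413 CPM (SD, n = 5), and E4 against C had a log2 fold change of -1.61 (adjusted p = 0.0035). Igsf1, an immunoglobulin superfamily gene, was at 0, 6.35 and 8.83 CPM in E4 and at 350, 25.7, 85 and 16 CPM in Ech, a log2 fold change of 4.52 ± 0.55 (adjusted p = 2.8e-08). Hes5, a Notch target that maintains progenitors, was at 4.13, 11.4 and 22.4 CPM in E4 and at 168, 54.6, 80.7 and 34.1 CPM in Ech, a log2 fold change of 2.71 ± 0.41 (adjusted p = 5.2e-06). Ncan, the proteoglycan neurocan, was at 3.65, 7.28 and 13.2 CPM in E4 and at 158, 32.6, 34.8 and 18.7 CPM in Ech, a log2 fold change of 2.95 ± 0.39 (adjusted p = 2.4e-07). Ech replicate 1 was the highest library for these 4 genes.

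Of 28 genes of synapses and transmitter receptors, 6 rose, against 2.7% of all genes, and 1 fell, which was Sparc. The GABA-B receptor genes Gabbr1 and Gabbr2 had log2 fold changes of 1.04 ± 0.21 and 1.93 ± 0.38, and Gpc5, a glypican, of 2.91 ± 0.58. For these 3 genes no E4 library reached an Ech library. Slc7a11, the cystine-glutamate exchanger, had a log2 fold change of 2.28 ± 0.44 (adjusted p = 3.9e-04), and the fatty acid binding protein gene Fabp7, a marker of radial glia, of 2.12 ± 0.52 (adjusted p = 0.0078). The calls on Gpc5 and Slc7a11 were lost without Ech replicate 1.

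Some genes were at or under the floor in all 6 E4 libraries. Cdh13, a cadherin without a cytoplasmic domain, was at 0 in all of them and at 4.98, 6.9, 7.1 and 3.44 CPM in Ech, so its mean was at least 4.97-fold higher in Ech. Hebp2, a heme-binding protein gene, was at 0 in all E4 libraries and at 4.21, 4.14, 2.29 and 10.3 CPM in Ech, a mean at least 4.65-fold higher. Sall3, a zinc finger transcription factor, was at or under the floor in E4 and at 30.6, 8.55, 21.3 and 7.12 CPM in Ech, a mean at least 15-fold higher. In C its mean was 8.72 ± 4.26 CPM (SD, n = 5). Cdh13, Hebp2 and Sall3 were detected in every Ech library. Lrrc4c, a netrin-G ligand at synapses, was at 0.308, 1.6 and 5.33 CPM in E4 and at 47.5, 47.2, 31.9 and 29.2 CPM in Ech, a log2 fold change of 4.03 ± 0.46 (adjusted p = 3.6e-09). Hbb-bs, a haemoglobin chain and mark of red blood cells, was at 0 in all E4 libraries and at 0.766, 10.5, 1.15 and 28.5 CPM in Ech.

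**Figure D3:**
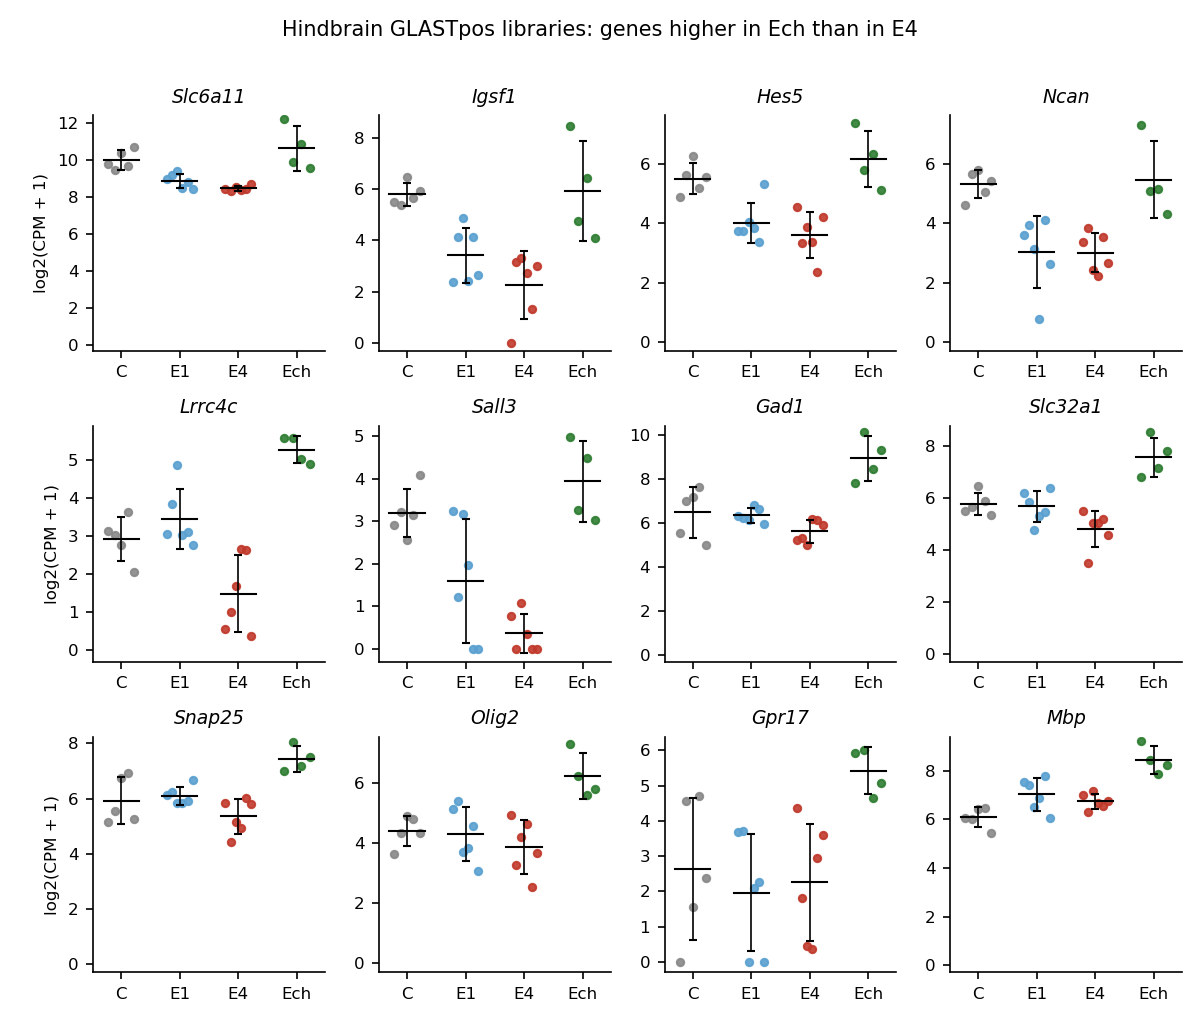
Expression of 12 genes that rose from E4 to Ech in the hindbrain GLASTpos libraries, as log2(CPM + 1), with points for libraries (C, 5; E1, 6; E4, 6; Ech, 4), horizontal lines for means and error bars for 1 SD. Ech replicate 1 is the highest point for Slc6a11, Igsf1, Hes5 and Ncan, and Ech replicate 2 for Gad1, Slc32a1 and Snap25.

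Neuronal transcripts rose in the same libraries. Of 10 general neuron markers, 7 rose and none fell, against 2.7% and 0.913% of all genes. Their summed level was between 732 and 859 CPM in E4, and 931, 1230, 950 and 1177 CPM in Ech 1 to 4. Against C, 5 of the 10 were higher and none lower in Ech, and none was called in E4. Over all genes, 1.21% were higher in Ech than in C and 1.66% in E4 than in C. Snap25, a protein of synaptic vesicle fusion, was at 20.4, 45 and 64.2 CPM in E4 and at 126, 266, 145 and 182 CPM in Ech, a log2 fold change of 2.05 ± 0.37 (adjusted p = 1.1e-04). Nefl, a neurofilament, had a log2 fold change of 2.24 ± 0.35 (adjusted p = 1.1e-05) and Rbfox3, the NeuN antigen, of 2.18 ± 0.64 (adjusted p = 0.033). The number of neuron markers that rose was 4 without Ech replicate 2 and 4 without E4 replicate 2, and the call on Rbfox3 was lost in both cases as well as without E4 replicate 4 or 6 or Ech replicate 1.

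Several genes of inhibitory neurons rose. In a list of 12 GABAergic and glycinergic genes put together after their values had been seen, 7 rose, and the sum was between 281 and 433 CPM in E4 and was 711, 2739, 1037 and 1546 CPM in Ech. Npy, a neuropeptide gene that holds a large share of the E4 sums, was lower in every Ech library than in E4 but was not called, at 195, 209 and 241 CPM in E4 and at 80.8, 70.1, 110 and 148 CPM in Ech (log2 fold change -1.05 ± 0.45, adjusted p = 0.16). Gad1, the enzyme that makes GABA, was at 30.9, 49.3 and 71.5 CPM in E4 and at 229, 1146, 352 and 642 CPM in Ech, a log2 fold change of 3.54 ± 0.54 (adjusted p = 5.1e-06). The vesicular GABA transporter gene Slc32a1 had a log2 fold change of 2.84 ± 0.52, Tfap2b, a transcription factor of cerebellar interneurons, of 3.10 ± 0.63, and the chloride exporter gene Slc12a5 of 3.35 ± 0.59. Pvalb, made by Purkinje neurons and interneurons, was at 33.3, 98.1 and 177 CPM in E4 and at 221, 1004, 421 and 616 CPM in Ech, a log2 fold change of 2.47 ± 0.53 (adjusted p = 0.0017). Of 7 Purkinje genes 3 rose (Pvalb, Itpr1 and Slc1a6), while Pcp2, a defining marker, was at most 5.52 CPM in E4 and 1.1 CPM in Ech. The call on Slc1a6 was lost without E4 replicate 1, 5 or 6 or Ech replicate 1, 2 or 4. Of 10 granule neuron genes 1 rose, Reln. Over all genes, 2.7% rose. In a list of 7 glutamatergic neuron genes, also put together after their values had been seen, 2 rose. Their sum was between 56.1 and 113 CPM in E4 and was 191, 372, 207 and 257 CPM in Ech. Most of it came from Neurod2, at 59.7, 216, 86.4 and 141 CPM in Ech, and Grin2b, at 70.5, 139, 98.5 and 103 CPM. Slc17a7 was at most 6.9 CPM in Ech, and Tbr1 was at 0 in all 10 libraries. The list was chosen by its values, so it cannot show whether the rise went beyond genes of inhibitory neurons. Slc17a6, a vesicular glutamate transporter, was at 0, 0 and 1.4 CPM in E4 and at 25.3, 6.07, 11 and 4.91 CPM in Ech, a log2 fold change of 5.37 ± 1.05 (adjusted p = 4.7e-04). Ech replicate 2 was the highest library for Gad1, Pvalb and Snap25, and replicate 1 for Slc17a6.

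Some genes of the oligodendrocyte lineage rose. Of 12 mature oligodendrocyte genes 2 rose, against 2.7% of all genes. Against C, 9 of the 12 were higher and none lower in Ech (median log2 fold change 2.36), where 1.21% of all genes were higher. In E4, 3 of the 12 were higher than in C and none lower (median 1.05), where 1.66% of all genes were higher. Mbp, which encodes myelin basic protein, was at 78.8, 104 and 142 CPM in E4 and at 595, 345, 233 and 298 CPM in Ech, a log2 fold change of 1.76 ± 0.36 (adjusted p = 9.9e-04). Of 8 precursor genes 3 rose (Gpr17, Bmp4 and Enpp6), with Gpr17 at 0.28, 4.62 and 19.8 CPM in E4 and at 60.1, 64, 24.3 and 32.6 CPM in Ech. In a list of 6 transcription factors of the lineage put together after their values had been seen, 4 rose, and Nkx2-2 and Sox8 had log2 fold changes of 0.10 and -0.08 with no call. Olig1 and Olig2 had log2 fold changes of 2.31 ± 0.33 (adjusted p = 1.5e-06) and 2.35 ± 0.35 (adjusted p = 3.3e-06). Summed over the list, mature oligodendrocyte genes were between 1727 and 3622 CPM in E4 and were 5200, 3537, 3154 and 3091 CPM in Ech, so the sums overlapped, while the precursor sums, between 145 and 328 CPM in E4 and between 365 and 497 CPM in Ech, did not. The part of RNA of neurons and oligodendrocytes in the genes that rose, Ncan among them, was not tested.

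**Figure D4:**
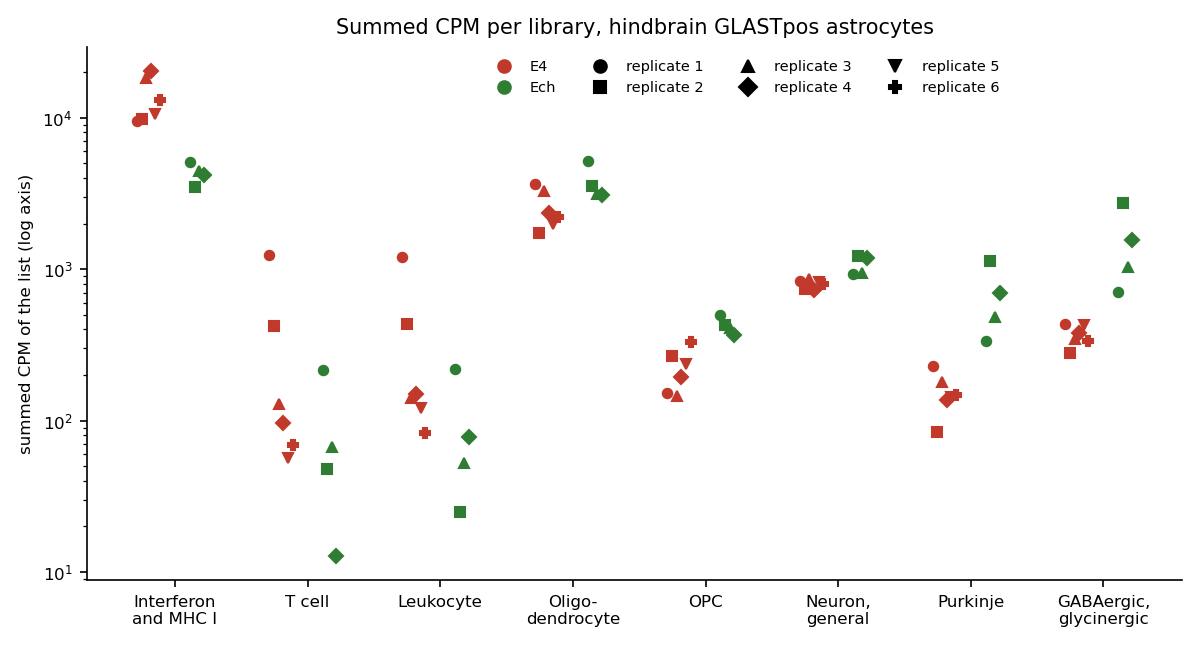
Summed CPM of gene lists in each E4 (red) and Ech (green) library of hindbrain GLASTpos astrocytes on a log axis, with a symbol for each replicate number. The interferon and MHC class I sums of Ech lie below those of E4, T cell and leukocyte sums are highest in E4 replicate 1, and GABAergic, glycinergic and Purkinje sums are highest in Ech replicate 2.

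Actg1, which encodes cytoplasmic gamma-actin, was called (log2 fold change 7.97 ± 2.17, adjusted p = 0.020) but split the Ech group. It was at most 8.46 CPM in E4 and at 0, 1882, 1.6 and 2254 CPM in Ech. Over the 21 hindbrain GLASTpos libraries it exceeded 50 CPM in 5, which were 2 of Ech, 3 of E1 and none of E4 or C, and the highest value under that limit was 8.46 CPM and the lowest above it 685 CPM. The same held over all 66 libraries of the EAE table, of which 21 exceeded 50 CPM in groups of both regions, controls included. The other 2 Ech libraries were within the range of E4.

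Most genes that define astrocytes were not called. Among 33 identity genes and transcription factors 3 rose (Hes5, Nkx6-2 and Sall1) and none fell, with a median log2 fold change of -0.04. Among 22 genes listed for Bergmann glia 2 rose, Fabp7 and Slc1a6 (median -0.23). Slc1a6 is also on the Purkinje list above, so its rise cannot be assigned to Bergmann glia. Aqp4, the water channel of end feet, was at 515, 657 and 694 CPM in E4 and at 466, 428, 622 and 487 CPM in Ech. Of 13 blood-brain barrier genes 2 rose, each highest in Ech replicate 1. Ptgs1 was at most 2.24 CPM in E4 and at 20.7, 0, 0.458 and 4.66 CPM in Ech, and Slc16a7 at most 1.1 CPM and at 9.57, 0, 0 and 0.982 CPM. None of the 19 genes of cholesterol synthesis was called (median 0.17), nor any of the 15 of lactate metabolism, the 7 of myelination support, or the 74 nuclear and 13 mitochondrial genes of the respiratory chain. Of 32 mitosis genes 2 fell, and of 23 replication genes none was called. Of 79 ribosomal protein genes 4 fell and none rose, with a median of -0.62. Beside all these counts, 0.913% of all genes fell and 2.7% rose.

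Whether the change from E4 to Ech differed between populations was tested as a difference of differences. In hindbrain GLASTneg astrocytes (6 libraries a stage), 20 genes fell (0.0857%) and none rose, where 1863 genes had an unadjusted p under 0.05. In spinal cord GLASTneg astrocytes (6 libraries a stage), 454 rose (1.95%) and 284 fell (1.22%). The change differed between GLASTpos and GLASTneg hindbrain astrocytes for 100 genes, 92 in the higher direction (0.394%) and 8 in the lower (0.0343%). The count was 62 without Ech replicate 1 and 66 without Ech replicate 2. Against spinal cord it differed for 524 genes, 312 higher (1.34%) and 212 lower (0.909%), with 280 without Ech replicate 1 and 322 without Ech replicate 2. Some libraries of different populations share a number in the brackets of their titles, which may name a mouse, and the fit treated them as independent. With libraries that share a number as a block, an alternative added after seeing the data, the change differed for 408 genes against GLASTneg hindbrain and 570 against spinal cord, and 92 of the 100 and 307 of the 524 were called again. The titles also hold a number after the letter S, unique to each library and not explained, which is lower in all GLASTneg hindbrain libraries than in the GLASTpos ones.

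Interferon genes also fell in the other populations. Of the 95, 15 fell in GLASTneg hindbrain astrocytes, where 20 genes fell in all (0.0857% of those tested). Their median log2 fold change was -1.66 there and -2.14 in GLASTpos. In spinal cord 9 of the 95 fell (median -0.74), against 1.22% of all genes. Igtp had a mean of 1335 CPM in E4 and 99.4 CPM in Ech in GLASTneg hindbrain astrocytes, a log2 fold change of -3.75 (adjusted p = 7.2e-05), and the difference to GLASTpos of -1.55 was not past the threshold (adjusted p = 0.36), but it was with the bracket number as a block (-1.14, adjusted p = 0.041). In spinal cord its means were 707 and 213 CPM, and the fall in hindbrain GLASTpos astrocytes was larger by 3.56 on the log2 scale (difference -3.56, adjusted p = 0.0058). Gbp2 had means of 75.6 and 60.8 CPM in spinal cord, a difference of -4.79 (adjusted p = 0.0035), and Ifi47 of 50.6 and 46.5 CPM, a difference of -4.34 (adjusted p = 0.0030). Tap1 (-2.40), Psmb8 (-3.08) and Stat3 (-1.41) also fell further than in spinal cord. The spinal cord libraries had a mean Mbp level of 5535 CPM and a mean Slc1a3 level of 30.8 CPM in E4, so they differed in these markers as well as in region.

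Atf5 fell further in GLASTpos than in GLASTneg hindbrain astrocytes, where its means were 112 and 83.2 CPM (difference -1.81, adjusted p = 0.0032). So did Lsm12, an RNA-binding protein gene, which was at 85.2, 106 and 134 CPM in E4 and at 13.4, 27, 29.1 and 34.4 CPM in Ech in GLASTpos (difference -3.09, adjusted p = 0.016), and Tbcc, a tubulin folding cofactor gene (difference -2.01, adjusted p = 0.0099). The call on Lsm12 from E4 to Ech was lost without Ech replicate 1 or 2, and that on Tbcc without Ech replicate 2.

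Several genes rose more in GLASTpos than in GLASTneg hindbrain astrocytes. The difference was 4.57 for Lrrc4c (adjusted p = 4.8e-07), 4.10 for Igsf1 (adjusted p = 3.1e-04), 2.36 for Slc6a11 (adjusted p = 0.0092) and 2.74 for Ncan (adjusted p = 0.0012). For Sall3 it was 5.49 (adjusted p = 9.0e-05), a size that is uncertain because all E4 libraries of GLASTpos were at or under the floor. These genes were abundant in GLASTneg hindbrain astrocytes at both stages. Slc6a11 had a mean of 7744 ± 1084 CPM (SD, n = 6) in E4 and 8845 ± 1120 CPM in Ech there, above every GLASTpos library, and Igsf1 had means of 262 and 350 CPM, Ncan of 198 and 230 CPM, and Hes5 of 315 and 366 CPM. Ech replicate 1, the highest GLASTpos library for these 4 genes, had Slc1a3 at 4595 CPM and Gdf10 at 995 CPM, the lowest of the Ech group, and GLASTneg hindbrain astrocytes had Slc1a3 at a mean of 1030 CPM and Gdf10 at 71.9 CPM in Ech. E4 replicates 1 and 3 had similar levels of Slc1a3 (4273 and 5508 CPM) and Gdf10 (1055 and 1295 CPM), with Slc6a11 at 345 and 369 CPM and Igsf1 at 0 and 8.83 CPM. The part of cells of the GLASTneg population in the rise was not tested. Gad1 had means of 14.1 and 19.4 CPM in GLASTneg hindbrain astrocytes, below all 10 GLASTpos libraries, and its rise was larger in GLASTpos by 3.09 (adjusted p = 0.022). Neuronal genes also rose in spinal cord. There, 5 of the 12 GABAergic and glycinergic genes rose (median log2 fold change 1.85) and 3 of the 10 general neuron markers (median 0.94), against 1.95% of all genes.

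**Figure D5:**
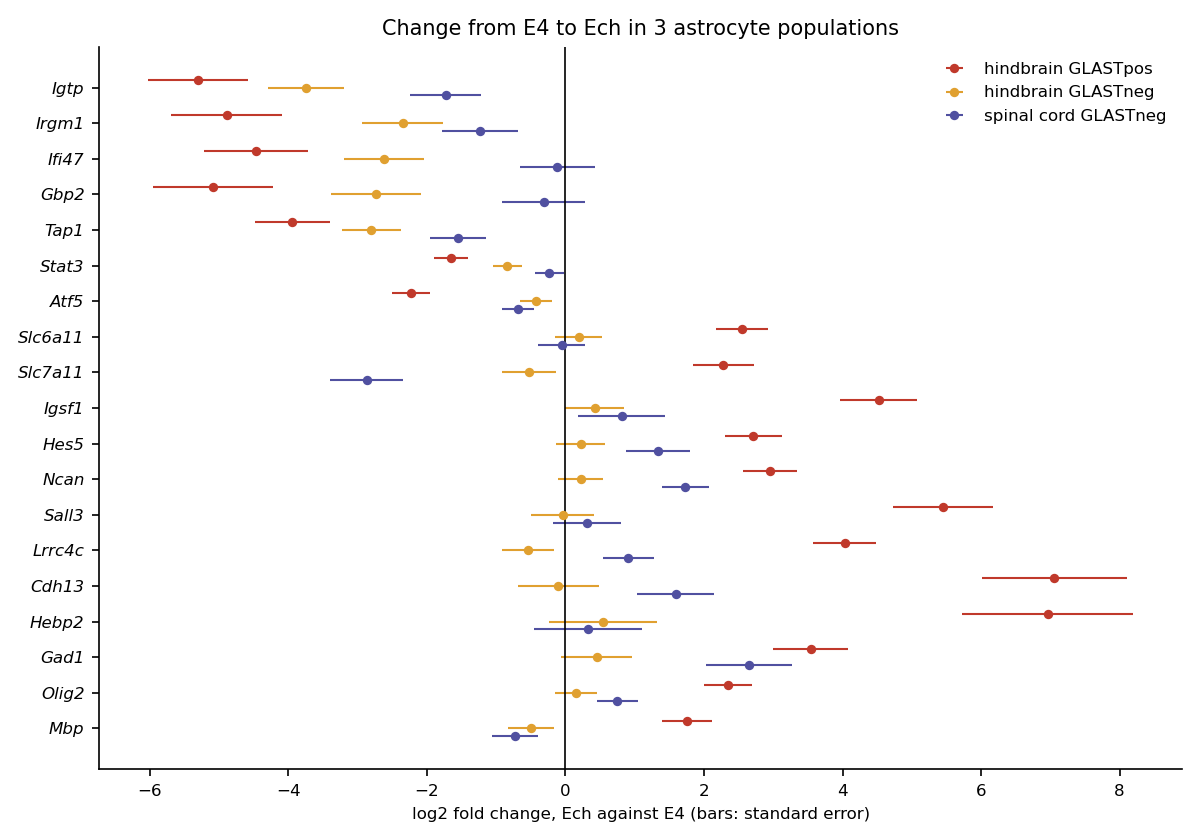
Log2 fold change from E4 to Ech, with standard errors, of 19 genes in hindbrain GLASTpos (red, 6 and 4 libraries), hindbrain GLASTneg (orange, 6 and 6) and spinal cord GLASTneg (blue, 6 and 6) astrocytes. Igtp is lowest in GLASTpos at -5.30, against -3.75 in GLASTneg hindbrain and -1.73 in spinal cord, and Slc6a11, Igsf1 and Sall3 lie near 0 in GLASTneg hindbrain.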

How the data were processed

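Members, gene lists and alternatives were chosen with earlier results of these data known. Per the labels and the study's methods, QuantSeq 3′ libraries were read as single reads, the authors aligned them to GRCm38 with HISAT 0.1.5, counted reads per gene with HTSeq 0.6.1p1 in union mode (the tools are also in the submitters' processing notes) and deposited the counts without normalization. The strand setting of counting is not given in the sources used here, so antisense partners such as Tap1 and Psmb9 cannot be told apart, nor overlapping genes. Batches of the table's 66 EAE libraries are not given in the sources used here. A number after the letter S in the titles, unique to each library and not explained, was tried as a covariate. For 1 spinal cord library at E1, title and region field disagree and the title was used.

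The deposited counts of 23324 genes, those summing to 10 or more over the libraries, were scaled by TMM and tested with edgeR's two-sided quasi-likelihood test (version 4.0.16, R 4.3.3) in 1 fit of 12 groups. p-values were adjusted over all genes (Benjamini-Hochberg), and standard errors are the log2 fold change divided by the square root of the F statistic. DESeq2 1.42.0 served as an alternative. For a group at or under 3 counts in each library, the mean of the other group was divided by the highest floor of that group. Such folds are lower bounds for means, not for single libraries. Python 3.11.15, pandas 2.3.3 and matplotlib 3.10.9 were used for tables and figures. Upstream sequences and motif shares come from RefSeq.

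Other numbers in the brackets of the titles differ between libraries of a group, recur across populations of the same stage and are doubled in some libraries, so they may name mice, but no label says so. p-values measure the spread between these libraries. The genes named were, among DEGs with a mean of at least 5 CPM in the higher group and no overlap of libraries, the 15 most changed each way by log2 fold change, anchor genes of the lists, up to 6 called members of each function list with the highest CPM, and the 5 largest differences between populations in each direction, of which those described are given. Atp1b2, Gpr17, Nefl, Pvalb, Psmb9, Lgals3bp, Oasl2, the named members of counts of 10 or fewer, and genes of the inhibitory neuron and oligodendrocyte factor lists lie outside that rule and were chosen after their values were seen. Some genes that met the rule are not reported here.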

Additional observations from a re-analysis of the deposited data

Results flagged for a closer look

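Among 204 sets of values tested for a library far from the rest of its group, 17 were flagged, and chance flags about 1 in 20 (10 of 204). In E4 replicate 1 the flagged values were the high sums of T cell (1235 CPM), leukocyte (1194 CPM) and endothelial (35.4 CPM) genes and high Per1 (132 CPM) and Olig1 (38.7 CPM). In E4 replicate 6 they were high Mt1 (13222 CPM), Mt2 (23536 CPM) and Prdx6 (1805 CPM), in E4 replicate 2 low Aqp4 (515 CPM) and in E4 replicate 4 Slc17a6 (1.4 CPM). In Ech replicate 1 they were high Ncan (158 CPM), Gpc5 (67 CPM), Serpina3n (118 CPM), a high sum of oligodendrocyte lineage factors (513 CPM) and low Irf7 (1.53 CPM). In Ech replicate 2 Bst2 was low (28.1 CPM), and in Ech replicate 3 Spry2 was high (140 CPM).

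The change from E4 to Ech also differed between hindbrain GLASTpos and GLASTneg astrocytes, by edgeR's test of the difference, for 16 of the genes given with a fold change, and between hindbrain GLASTpos and spinal cord GLASTneg astrocytes for 24. Against GLASTneg, the fall was larger for Atf5 (difference of log2 fold changes -1.81), Lsm12 (-3.09) and Tbcc (-2.01). The rise was larger for Slc6a11 (2.36), Slc7a11 (2.80), Hes5 (2.50), Ncan (2.74), Igsf1 (4.10), Sall3 (5.49), Lrrc4c (4.57), Gad1 (3.09), Olig1 (2.36), Olig2 (2.20) and Mbp (2.26). Cdh13 (7.16) and Hebp2 (6.42) were at 0 in all E4 libraries of GLASTpos, so their fitted differences depend on the prior count. Sall3 was at or under the floor in all of them, so the size of its difference is uncertain too. Against spinal cord, the fall was larger for Igtp (-3.56), Irgm2 (-2.99), Irgm1 (-3.66), Ifi47 (-4.34), Iigp1 (-3.31), Gbp2 (-4.79), Gbp7 (-2.32), Tap1 (-2.40), Psmb8 (-3.08), Nlrc5 (-3.16), Stat3 (-1.41) and Atf5 (-1.55). The rise was larger for Slc6a11 (2.60), Slc7a11 (5.15), Igsf1 (3.71), Sall3 (5.14), Gabbr1 (1.47), Lrrc4c (3.12), Nefl (2.27), Olig1 (2.06), Olig2 (1.60) and Mbp (2.50). Those of Cdh13 (5.47) and Hebp2 (6.65) again rest on E4 libraries at 0, and that of Sall3 on E4 libraries at or under the floor.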

How the results depend on the processing

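Of the 73 genes given with a fold change from E4 to Ech, 49 kept their call or lack of call under every alternative tried (19 settings a gene), and no direction reversed. Without Ech replicate 2, 19 genes lost their call, and 12 without Ech replicate 1. When the spread came from the compared groups only, DEGs of Ech against E4 numbered 415 in place of 842, the difference to GLASTneg 182 in place of 100 and the difference to spinal cord 249 in place of 524. With the 21 hindbrain GLASTpos libraries only, Ech against E4 gave 406, E4 against C 285 in place of 474 and Ech against C 147 in place of 306. The neuron markers that rose numbered 4 in place of 7 in both of these fits. DESeq2 gave 678 for Ech against C and 209 for the difference to GLASTneg, and no filter on low counts gave 480 and 191. Without single replicates, Ech against E4 ranged from 471 to 780, E4 against C from 300 (without E4 replicate 1) to 489, Ech against C from 169 (without Ech replicate 1) to 380, the difference to GLASTneg from 62 to 137, the difference to spinal cord from 280 to 512, interferon and MHC class I genes that fell from 30 to 51 and neuron markers that rose from 4 to 7. Ech against C was 189 without Ech replicate 2. Without E4 replicates 1 and 2 together, an alternative added after seeing the data, E4 against C gave 257. The cause of these shifts was not tested. Nothing in the labels pairs E4 with Ech libraries, their bracket numbers differ, and libraries of the same number did not deviate together (correlations 0.121, -0.07, 0.0128 and 0.0599 over 10575 genes, and 1 of 4 above 0.1), so no pairing was used. With the replicate number as a block, DEGs numbered 785 for Ech against E4, 447 for E4 against C, 315 for Ech against C, 107 for the difference to GLASTneg and 389 for the difference to spinal cord. With libraries that share a bracket number as a block (4 E4 and 3 Ech blocks shared by GLASTpos and GLASTneg hindbrain, 3 and 3 by GLASTpos and spinal cord; added after seeing the data), the difference to GLASTneg numbered 408 and that to spinal cord 570. All 16 and 24 genes given with a fold change and called for a difference kept their call and direction, 19 and 11 further ones passed, and the values against spinal cord fell in size to -1.60 for Irgm2, -2.11 for Iigp1 and -1.47 for Gbp7. With floors up to 1.15 CPM, levels under the floor cannot be told from 0.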
